A study of Mus musculus with 36 samples.

Results

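The libraries described here are the 8 of the 12 periaqueductal grey (PAG) libraries of this series that lay at the ends of a ranking by Chat, 4 with the highest and 4 with the lowest level, out of 36 libraries in all. Chat encodes choline acetyltransferase, the enzyme that makes acetylcholine. The libraries were chosen by their measured Chat RPKM (read count scaled by gene length and library depth), whatever the surgery. The series measured polyadenylated RNA from nucleus accumbens (NAc), prefrontal cortex (PFC) and PAG of adult male C57BL/6 mice, with 6 sham and 6 injured libraries per region. Injury was spared nerve injury (SNI), in which branches of the sciatic nerve are cut and one is left intact, and tissue was taken 2.5 months after the injury or the sham surgery. The labels call each RNA sample pooled and do not say how many animals a pool holds, and nothing says that the pools were dissected apart, so p-values measure only the spread between these libraries. The 12 PAG libraries held 27598522 to 44081430 reads counted in genes. In dissected tissue, fewer cells of a type and less RNA per cell cannot be told apart.

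The PAG surrounds the midbrain aqueduct. The oculomotor and trochlear nuclei, whose cholinergic motor neurons move the eyes, lie against its ventral border, the Edinger-Westphal nucleus with its peptide neurons sits beside them, and the serotonin neurons of the dorsal raphe lie in its ventral part. Cranial motor neurons share Chat and the choline transporter Slc5a7 with other cholinergic cells, and carry in addition motor transcription factors such as Isl1, Lhx4 and Tbx20.

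The high-Chat libraries were sham 29 at 6.16 RPKM, sham 25 at 5.45, SNI 36 at 4.79 and sham 27 at 4.32, so 1 of the 4 was SNI. The low-Chat libraries were sham 28 at 2.16 RPKM, SNI 33 at 1.70, SNI 31 at 1.36 and SNI 34 at 0.361, so 3 of the 4 were SNI. Between them stood sham 30 at 3.56 RPKM, sham 26 at 3.38, SNI 35 at 2.73 and SNI 32 at 2.33. These values chose the classes and carry no test. The highest library held 17.1 times the lowest, on 612 and 39 reads. At the upper edge of the middle group 4.32 stood against 3.56 RPKM, and at the lower edge 2.33 stood against 2.16, where the exact Poisson intervals at 95% confidence, 2.05 to 2.64 and 1.88 to 2.46, overlapped. Those intervals cover counting error only. By surgery Chat was 4.17 ± 1.46 RPKM in sham and 2.21 ± 1.51 in SNI (SD, n = 6 each).

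Slc5a7, the high-affinity choline transporter that supplies acetylcholine synthesis, was given with Chat as a marker of the same cells and is described without a test. It stood at 20.04, 14.4, 10.8 and 13.01 RPKM in the high-Chat libraries, in the order sham 29, sham 25, SNI 36 and sham 27 that is kept for that class below. The middle libraries sham 30, sham 26, SNI 35 and SNI 32 had 7.38, 8.97, 7.18 and 5.04 RPKM. In the low-Chat libraries, in the order sham 28, SNI 33, SNI 31 and SNI 34, it was 6.63, 3.19, 2.63 and 0.874 RPKM. Every high library lay above every middle and low one, and the classes differed by 2.17 on the log2 scale (SE 0.43). Its slope at fixed surgery was 1.19 log2 units (SE 0.07) per doubling of Chat + 0.5 RPKM, called a doubling of Chat below. The ratio of Slc5a7 to Chat ranged from 1.88 to 3.25 over the 12 PAG libraries, against 1.27 to 1.63 over the 12 NAc libraries, whose cholinergic cells are local interneurons.

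**Figure D1:**
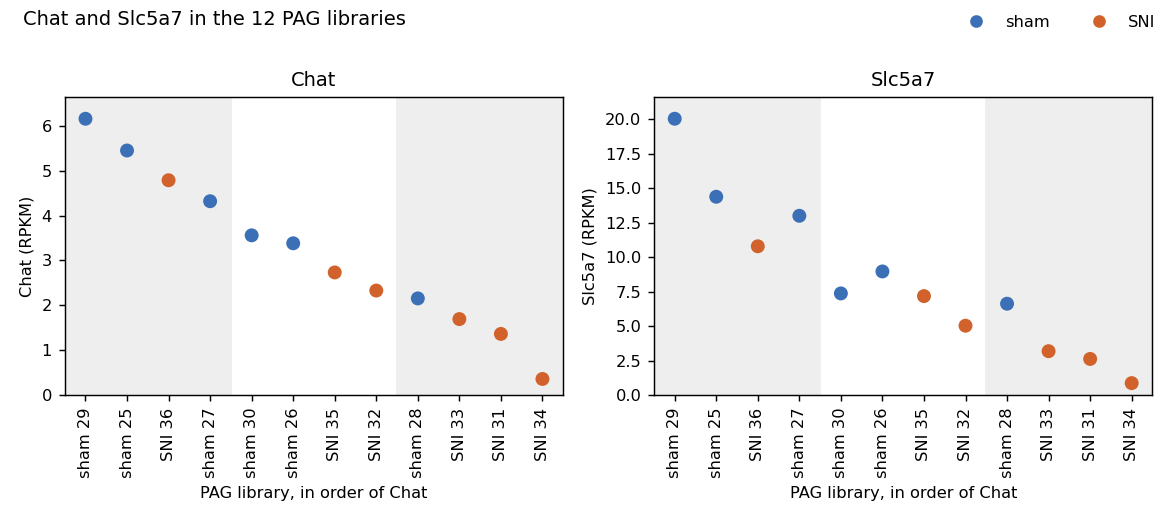
Chat (left) and Slc5a7 (right) in RPKM, 1 point per PAG library in order of Chat, blue for sham and orange for SNI, with the 4 high and the 4 low libraries shaded. Chat falls from 6.16 to 0.361 RPKM and Slc5a7 from 20.04 to 0.874, and the low class holds 3 SNI libraries while the high class holds 1.

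Whether the marker Slc5a7 and the motor genes Lhx4 and Prph share regulation was not tested, and their promoter sequences are shown as a description. Each is the 250 bases before the annotated start, 5′ to 3′ on the gene's strand, from RefSeq on GRCm38.p6, with TATAAA and GGGCGG in capitals where either occurs on either strand. The windows are chr17:54299035-54299284 on the minus strand for Slc5a7, chr1:155742028-155742277 on the minus strand for Lhx4 and chr15:99054924-99055173 on the plus strand for Prph.
Slc5a7: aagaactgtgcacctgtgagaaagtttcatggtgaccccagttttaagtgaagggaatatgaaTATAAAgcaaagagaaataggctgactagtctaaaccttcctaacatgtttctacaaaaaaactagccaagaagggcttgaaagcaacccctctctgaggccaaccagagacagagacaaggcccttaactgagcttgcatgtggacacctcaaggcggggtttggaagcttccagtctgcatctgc
Lhx4: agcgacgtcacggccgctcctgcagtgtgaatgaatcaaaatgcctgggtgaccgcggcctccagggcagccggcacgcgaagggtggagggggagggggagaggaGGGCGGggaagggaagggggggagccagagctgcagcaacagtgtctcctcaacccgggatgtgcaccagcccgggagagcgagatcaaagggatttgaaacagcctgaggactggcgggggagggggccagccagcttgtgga
Prph: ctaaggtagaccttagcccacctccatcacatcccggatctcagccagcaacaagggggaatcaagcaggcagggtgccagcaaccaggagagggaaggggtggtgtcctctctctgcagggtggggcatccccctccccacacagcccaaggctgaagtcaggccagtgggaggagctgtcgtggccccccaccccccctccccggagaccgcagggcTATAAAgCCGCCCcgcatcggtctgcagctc
The RefSeq start used for Lhx4 lies inside the GENCODE gene, downstream of its first base. The 3 windows differ in composition, with 45.6% GC for Slc5a7, 66% for Lhx4 and 65.2% for Prph. Of all 32851 promoter windows of this length, 12.4% hold TATAAA and 32.7% hold GGGCGG. Of the 31 genes on the cholinergic and cranial motor lists 25 had a promoter entry, and of these 6 held TATAAA and 16 held GGGCGG. The homeodomain core TAATTA was in 1 of the 25, against 4.84% of all windows. A gene was counted if any of its windows held the motif, while the percentages are shares of single windows. TATAAA began 187 bases before the start in Slc5a7 and 31 in Prph. A match is a run of letters, not a binding site.

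Lhx4, a LIM-homeodomain factor of developing motor neurons, followed Chat most closely of the tested motor genes. Its level was 2.46, 1.69, 1.83 and 1.41 RPKM in the high-Chat libraries and 0.870, 0.680, 0.495 and 0.293 RPKM in the low-Chat ones. Between them the middle libraries had 0.829, 1.26, 1.22 and 0.728 RPKM. The high and low classes did not overlap, and their means were 1.85 ± 0.45 and 0.584 ± 0.25 RPKM (SD, n = 4 each). In limma across 15590 genes the class difference was 1.13 log2 units (SE 0.19), with an adjusted p of 0.426. Its slope over all 12 libraries at fixed surgery was 0.64 log2 units per doubling of Chat (SE 0.09), with a limma adjusted p of 0.0335. Lhx4 was at most 0.0132 RPKM in NAc, where Chat was 5.62 to 10.1 RPKM, and at most 0.0173 in PFC. In PAG Lhx4 followed Chat, and it was near 0 in a region with more Chat. The call ended when any 1 of sham 25, sham 26, sham 27, sham 28, SNI 31, SNI 32, SNI 35 or SNI 36 was left out, while the slope stayed between 0.60 and 0.81, with limma adjusted p from 0.0306 to 0.220. The gene lies at chr1:155698031-155751684 on the minus strand of mm10.

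No other gene of the cranial motor list passed the adjusted threshold of 0.05 in either fit. The 21 genes on the list are all in the table, and 14 reached the mean of 0.5 RPKM over the PAG libraries that a test required. Of the 14, 11 were higher in the high-Chat class, against 43.6% of all genes, and 7 of them had all 4 high libraries above all 4 low ones. Over all genes tested, 1.03% had that non-overlap in the same direction, and 0.00641% passed the adjusted test of the classes in either direction. The median difference of the 14 was 0.41 log2 units, against -0.01 over all genes. The slope on Chat was above 0 for 12 of the 14, with an unadjusted p under 0.05 for 8, against 7.54% of all genes in that direction, and 1 passed the adjusted test upward, against 0.0192%. The list was chosen with results of these data known, so its counts describe the list and are not independent evidence. Calcb, with a low-class mean of 0.494 RPKM, came past the filter through its higher libraries.

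Other transcription factors of the list fell below the filter. Tbx20, a T-box factor of cranial motor neurons, had 35, 24, 26 and 26 reads in the high class, 14, 15, 13 and 12 in the middle and 13, 5, 7 and 3 in the low class. Isl1, a LIM-homeodomain factor of motor neurons and of some striatal neurons, was 0.493, 0.550, 0.321 and 0.352 RPKM in the high class and 0.264, 0.0708, 0.153 and 0.112 in the low one, and 4.88 to 8.32 RPKM in NAc. Both factors separated the high from the low libraries, at levels too low for the test. Uts2b, Phox2a, Isl2 and Mnx1 had at most 12 reads in any PAG library.

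The remaining motor genes encode structural, secreted and receptor proteins. Prph, the intermediate filament peripherin of neurons with peripheral axons, was 5.64, 5.37, 5.94 and 3.83 RPKM in the high class and 2.84, 3.26, 3.88 and 3.01 in the low class. Only sham 27 fell within the low range, by 3.83 against 3.88 RPKM in SNI 31. The difference was 0.59 (SE 0.14) and the slope 0.40 (SE 0.07), with a limma adjusted p of 0.0817. Calcb, which encodes a calcitonin gene-related peptide, was 2.30, 1.302, 1.06 and 1.52 RPKM in the high class and 0.869, 0.377, 0.319 and 0.411 in the low class. Calca, which encodes the other such peptide, was 2.58, 2.79, 2.60 and 2.0002 against 1.47, 1.68, 1.82 and 1.93 RPKM. Both peptides separated the classes, Calcb by a wider margin, with differences of 1.04 (SE 0.21) and 0.42 (SE 0.11).

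Chodl, the membrane protein chondrolectin found in motor neurons, was 2.88, 2.36, 1.46 and 1.92 RPKM in the high class and 1.42, 0.711, 0.739 and 0.653 in the low class. The classes met at 1.46 RPKM in SNI 36 and 1.42 in sham 28, and the difference was 0.95 (SE 0.20). Spp1, the secreted protein osteopontin, was 58.7, 46.6, 32.6 and 36.6 against 32.8, 21.05, 19.4 and 27.2 RPKM, with sham 28 just above SNI 36. Ret, the signalling receptor for GDNF-family factors, was 12.9, 13.2, 13.1 and 11.3 against 9.49, 9.24, 9.89 and 8.98 RPKM. Its co-receptor Gfra1 ranged from 14.7 to 15.9 RPKM in the high class and from 11.3 to 14.3 in the low one. Ahnak2, a large scaffold protein, ranged from 1.01 to 1.37 and from 0.514 to 0.799 RPKM. The classes did not overlap for Ret, Gfra1 and Ahnak2, while their differences were 0.41 (SE 0.07), 0.21 (SE 0.08) and 0.43 (SE 0.11). The slope of Gfra1 was 0.15 (SE 0.04), with a limma adjusted p of 0.136.

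Not every motor gene followed Chat. Esrrb, Esrrg, Ebf2, Mmp9 and Ngfr had overlapping classes. Esrrg, a nuclear receptor, was 17.5 RPKM in sham 29 and 17.7 in SNI 34, the libraries with the highest and the lowest Chat. Mmp9, a protease of fast motor neurons, ranged from 0.548 to 0.882 in the high class and from 0.606 to 0.834 RPKM in the low one.

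**Figure D2:**
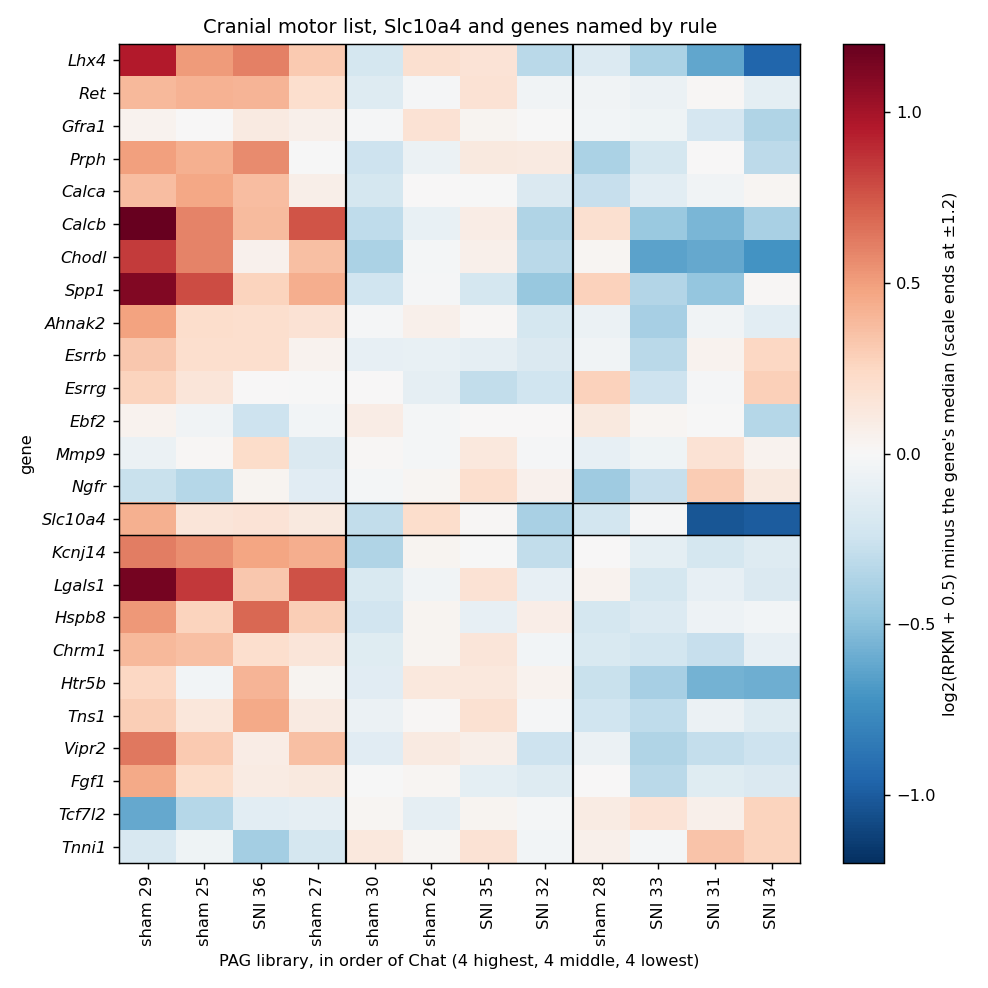
Colour gives log2(RPKM + 0.5) minus the gene's median over the 12 PAG libraries, with libraries in order of Chat and lines between the 4 high, 4 middle and 4 low ones; the upper block is the cranial motor list as tested, then Slc10a4, then the other genes named by rule. Lhx4 runs from 2.46 to 0.293 RPKM across the order, while Esrrg, Mmp9 and Ngfr show no such order.

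The genes that make and handle acetylcholine did not move as 1 group. Of 10 genes on that list 9 are in the table, and Slc18a3, the vesicular acetylcholine transporter, was not analysed here. Of the 7 tested, 3 were higher in the high class, against 43.6% of all genes, and 1 had its high libraries above its low ones, against 1.03%. The median difference was -0.04. That gene was Slc10a4, a vesicular protein of cholinergic and monoamine neurons. It was 7.98, 6.46, 6.55 and 6.33 RPKM in the high class, 4.63, 6.79, 5.87 and 4.31 in the middle and 4.91, 5.71, 2.59 and 2.66 in the low class. Only SNI 31 and SNI 34 stood clearly below the other libraries, and the difference was 0.78 (SE 0.23). Ache, which breaks acetylcholine down, overlapped between the classes, at 25.5 to 36.8 RPKM in the high and 23.4 to 30.8 in the low class. Choline kinases Chka and Chkb, the choline transporter Slc44a1, the cholinesterase Bche and the anchor Prima1 also overlapped. Colq, the collagen tail of acetylcholinesterase, was under the filter and highest in SNI 34, with 82 reads.

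Of 12 acetylcholine receptor genes tested, 7 were higher in the high class and 1, the muscarinic receptor Chrm1, had classes that did not overlap, against 43.6% and 1.03% of all genes. Chrm1 was 1.43, 1.40, 1.201 and 1.14 RPKM in the high class and 0.801, 0.769, 0.723 and 0.881 in the low class, a difference of 0.47 (SE 0.09). These levels are far below those of NAc, where Chrm1 was 20.7 to 29.2 RPKM. Of 12 genes for neurofilaments and other parts of large axons, 6 were higher, near the share of all genes, and 1 did not overlap. This was the neurofilament Nefm, with 146, 124, 120 and 107 against 102, 90.9, 94.3 and 106 RPKM. Nefm in the middle libraries was 88.3, 91.1, 83.0 and 89.1 RPKM, below all 4 low ones, so it did not follow the whole order. Its slope at fixed surgery was 0.11 (SE 0.10).

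Over all genes, the class comparison gave 1 call in 15590, and 408 genes, or 2.62%, had an unadjusted p under 0.05. The call was Gm23489, a predicted microRNA gene outside the naming rule. It rested on 1 read in each high library and 5, 4, 4 and 5 reads in the low ones. Without any 1 of sham 25, sham 27, sham 28, sham 29, SNI 33 or SNI 34, 0 genes passed. The slope at fixed surgery gave 5 calls, or 0.0321%, and 12.8% of genes had an unadjusted p under 0.05. Besides Lhx4 these were Vwa5b1, Rimbp2, Il33 and Mog. All 5 calls ended with array weights, with the GC slope described below as a covariate, without a filter on low values, and when any 1 of sham 27, sham 28, SNI 31, SNI 32, SNI 35 or SNI 36 was left out. Over the fits with 1 library left out the slopes kept to 0.23 to 0.25 for Vwa5b1, 0.24 to 0.27 for Rimbp2, -0.25 to -0.21 for Il33 and -0.28 to -0.25 for Mog. With no surgery term they were 0.10 for Rimbp2, -0.13 for Il33 and -0.15 for Mog. Without SNI 31 and SNI 34 and with the GC slope in the fit they were 0.045 for Rimbp2 and -0.12 for Mog.

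Vwa5b1 rose by 0.24 log2 units per doubling of Chat (SE 0.03, limma adjusted p 0.0335). It was 10.2, 9.77, 10.5 and 10.2 RPKM in the high class, 8.89, 9.90, 10.3 and 8.99 in the middle and 8.60, 8.30, 7.76 and 6.59 in the low class. Rimbp2, a presynaptic scaffold protein, rose by 0.25 (SE 0.04, limma adjusted p 0.0395), although its classes overlapped. At 20.3, 18.5 and 17.5 RPKM it was highest in SNI 36, SNI 35 and SNI 32. Il33, a cytokine stored in the nuclei of glia, fell by 0.23 on the log2 scale per doubling of Chat (SE 0.03, limma adjusted p 0.0335). It was 44.1, 44.5, 36.2 and 43.2 RPKM in the high class and 52.6, 47.6, 49.3 and 55.2 in the low class. Mog, a glycoprotein of the myelin sheath, is given below with the other oligodendrocyte genes.

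By the naming rule 12 genes stood higher and 2 lower in the high class, each with classes that did not overlap and a slope of the same sign. The rule names at most 12 per direction, so 12 against 2 does not compare the directions. Over all genes tested, 2.03% had classes that did not overlap in either direction and 1% had all low libraries above all high ones. None of the 14 passed the adjusted test of the classes. Besides Lhx4, Ret, Calcb, Chodl and Chrm1, the 12 held Kcnj14, Lgals1, Hspb8, Htr5b, Tns1, Vipr2 and Fgf1. Kcnj14, an inward-rectifier potassium channel of cranial motor neurons, was 2.62, 2.51, 2.34 and 2.27 RPKM in the high class and 1.55, 1.38, 1.26 and 1.33 in the low class. The middle libraries, at 1.09, 1.58, 1.53 and 1.17 RPKM, were like the low ones. Its difference was 0.64 (SE 0.08), with a limma adjusted p of 0.140.

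Lgals1, the sugar-binding protein galectin-1, was 16.3, 13.2, 9.01 and 12.4 RPKM against 7.34, 6.09, 6.59 and 6.24. Hspb8, a small heat shock protein in which mutations cause motor neuropathy, was 10.6, 8.84, 11.97 and 9.03 against 6.21, 6.42, 6.94 and 7.06 RPKM. Both stood apart in the high class alone, since the middle libraries were 6.21 to 8.11 RPKM for Lgals1 and 6.11 to 7.72 for Hspb8. Htr5b, a serotonin receptor, was 1.3004, 0.980, 1.51 and 1.05 against 0.762, 0.652, 0.521 and 0.510 RPKM. Vipr2, a receptor for vasoactive intestinal peptide, was 0.600 to 1.11 against 0.308 to 0.486 RPKM, and with a low-class mean of 0.379 it came past the filter through its higher libraries. Tns1, which links integrins to actin, was 11.4 to 14.7 against 8.48 to 10.1 RPKM. Fgf1, a growth factor abundant in motor neurons, was 62.2, 52.8, 48.5 and 49.2 against 45.5, 35.96, 40.7 and 40.04 RPKM. The ratio of class means ran from 1.31 for Fgf1 to 3.16 for Lhx4 among the 12.

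Tcf7l2, a transcription factor of the Wnt pathway that marks thalamic and midbrain neurons, was lower with high Chat. It was 11.2, 13.6, 15.9 and 16.1 RPKM in the high class, 17.7, 16.2, 17.8 and 17.2 in the middle and 18.7, 19.6, 18.2 and 21.1 in the low class. The difference was -0.44 (SE 0.11). Tnni1, a troponin of slow muscle, was 2.57 to 3.43 RPKM in the high class and 3.53 to 4.68 in the low one, a difference of -0.38 (SE 0.11). Neither passed the adjusted limma test of the classes or of the slope, where Tcf7l2 had an adjusted p of 0.175 and Tnni1 of 0.202.

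Markers of the serotonin neurons of the dorsal raphe moved with Chat as well. Of 13 genes, 12 were higher in the high class, against 43.6% of all genes. An unadjusted slope p under 0.05 was found for 12, against 7.54% of all genes in that direction, with a median slope of 0.34 and 0 past the adjusted threshold. Their summed level was 377 to 463 RPKM in the high class, 307 to 448 in the middle and 169 to 396 in the low class. Tph2, the serotonin-making hydroxylase, was 186, 152, 153 and 143 RPKM in the high class and 139, 152, 52.7 and 62.2 in the low class. Slc6a4, the serotonin transporter, was 82.9, 70.8, 75.9 and 64.7 against 60.3, 62.8, 24.3 and 27.9 RPKM. SNI 31 and SNI 34 alone carried the low values, and sham 28 and SNI 33 had low Chat with serotonin markers near those of the high class. Without SNI 31 and SNI 34 the median difference of the serotonin list was 0.09. These libraries were left out for their low serotonin markers, so that fall was built into the choice and is no test. The median of the cranial motor list was then 0.46 with 13 of 14 genes higher, with only sham 28 and SNI 33 left in the low class. In sham libraries alone the median slope on Chat was 0.40 for the motor list, with an unadjusted p under 0.05 for 9 genes upward, and 0.13 for the serotonin list, with 0, against 9.88% of all genes. In SNI libraries alone the medians were 0.10 and 0.42, with 6 and 11 such genes, against 3.48% of all genes. Whether the 2 lists differ between the surgeries was not tested. All 10 tested genes on the dopamine list were also higher in the high class, against 43.6% of all genes. Ddc, Slc18a2, En1 and Lmx1b stand on both monoamine lists.

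Peptides of the Edinger-Westphal nucleus were uneven. Cartpt, which encodes the CART peptide, was 327, 359, 117 and 161 RPKM in the high class, 60.2, 64.2, 72.9 and 81.0 in the middle and 138, 58.1, 65.1 and 122 in the low class. Ucn, which encodes urocortin, was 2.13, 3.71, 6.60 and 0.888 against 0.638, 1.28, 1.25 and 2.68 RPKM. Both were high in part of the high class, and SNI 34, the library with the least Chat, had more of each than any middle library. Of the 6 genes on that list, 4 were higher in the high class, against 43.6% of all genes, and 0 had classes that did not overlap. The median difference of the 6 was 0.63 and their median slope 0.17, with an unadjusted slope p under 0.05 for 0. In sham libraries alone their median slope was 0.87, with an unadjusted p under 0.05 for 3 upward, against 9.88% of all genes. In SNI libraries alone it was -0.03, with 0.

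Oligodendrocyte genes ran the other way. All 14 tested were lower in the high class, with a median difference of -0.22, while 43.6% of all genes were higher, with a median of -0.01. Mog alone had all low libraries above all high ones, against 1% of all genes. Their slopes had an unadjusted p under 0.05 downward for 7, against 5.27% of all genes, and Mog passed the adjusted test, against 0.0128% downward. Without SNI 34 the median slope was -0.04 instead of -0.12, with 6 of the 14 above 0 and 4 at an unadjusted p under 0.05 downward. In sham libraries alone 8 of the 14 were above 0, with a median of 0.02. Without SNI 31 and SNI 34 the median class difference was -0.07, with 4 of the 14 higher. Mog was 62.5, 58.5, 48.6 and 59.3 RPKM in the high class, 62.7, 64.5, 52.0 and 54.7 in the middle and 72.5, 69.0, 65.2 and 77.4 in the low class. It fell by 0.26 on the log2 scale per doubling of Chat (SE 0.04, limma adjusted p 0.0335). With a surgery term in the class comparison, 5 of the 14 genes were higher and the median was -0.09. The part of serotonin and oligodendrocyte RNA in the Chat differences was not tested.

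**Figure D3:**
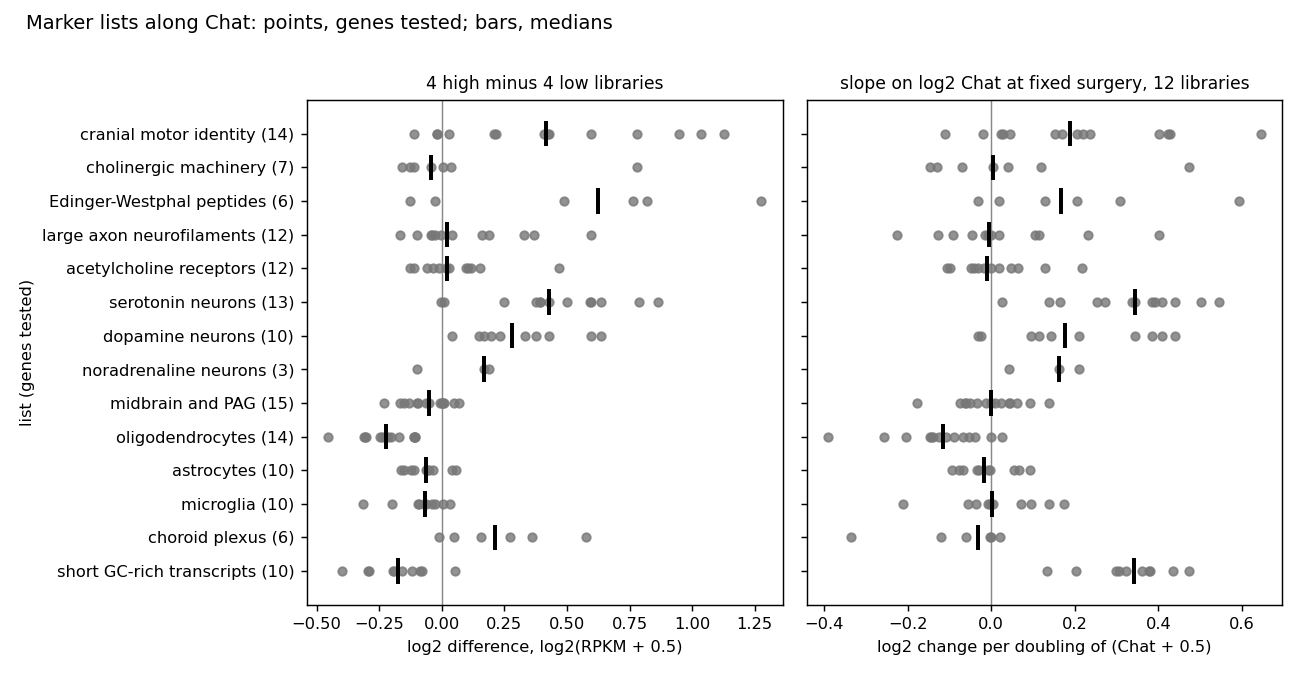
Each point is 1 tested gene of a list and each bar the list's median, as log2 difference of the 4 high minus the 4 low libraries (left) and as slope on log2 Chat at fixed surgery over 12 libraries (right). The cranial motor median lies at 0.41 and 0.19, the serotonin median at 0.43 and 0.34, and the oligodendrocyte median at -0.22 and -0.12.

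Markers of other tissues near the PAG had no common pattern. Ttr, the transthyretin of choroid plexus, was 748 RPKM in sham 27 and 308 in SNI 31, which lie in opposite classes, and at most 15.2 elsewhere. Without those 2 libraries 13 of the 14 cranial motor genes were higher in the high class. Noradrenaline markers were uneven in all classes: Dbh had 81 reads in SNI 36, 108 in SNI 32 and 171 in SNI 31. Of 10 hindbrain Hox genes in the table, 0 reached the filter, and their summed level was at most 0.0961 RPKM. Of 11 genes on the Schwann cell list 4 were tested, and 4 averaged under 0.1 RPKM in PAG. The summed level of the list was 136 to 151 RPKM in the high class and 148 to 166 in the low one, most of it from Mal, a myelin protein that oligodendrocytes also make. Pmp22 and Mal had an unadjusted slope p under 0.05 downward, against 5.27% of all genes, with slopes of -0.17 and -0.13, and their classes overlapped. The sum of 9 skeletal muscle genes was 2.06 to 3.53 RPKM.

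Sham and SNI libraries also differed in their GC slope, which is computed from the same expression values and whose cause was not tested. The GC slope is the change of log2 level per 10 points of gene GC content relative to the mean of the libraries. It was negative in all 6 sham libraries, -0.217 in sham 28 to -0.0246 in sham 25, and positive in all 6 SNI libraries, 0.0359 in SNI 33 to 0.218 in SNI 36. Within each surgery the library with the lowest GC slope was in the low-Chat class and the one with the highest was in the high-Chat class. On the list of short, GC-rich transcripts all 10 genes had a slope on Chat above 0, against 50.2% of all genes. Of these 9 had an unadjusted p under 0.05, against 7.54% of all genes upward. Their median slope was 0.34, against 0.19 for the motor list. In the class comparison 1 of the 10 was higher in the high class, with a median difference of -0.18. With a surgery term there all 10 were higher, with a median of 0.78, against -0.01 over all genes. Rpl36 was 66.2 RPKM in SNI 36 against 28.4 in SNI 33. With the GC slope in the class comparison, 12 of the 14 motor genes were higher, with a median of 0.42. Added to the slope fit, it left 10 of the 14 above 0 with a median of 0.11, against 0.19 without it, and an unadjusted p under 0.05 for 6 upward, against 4.27% of all genes, and for 1 downward. In that fit Lhx4 was at 0.63 with a limma adjusted p of 0.125.

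**Figure D4:**
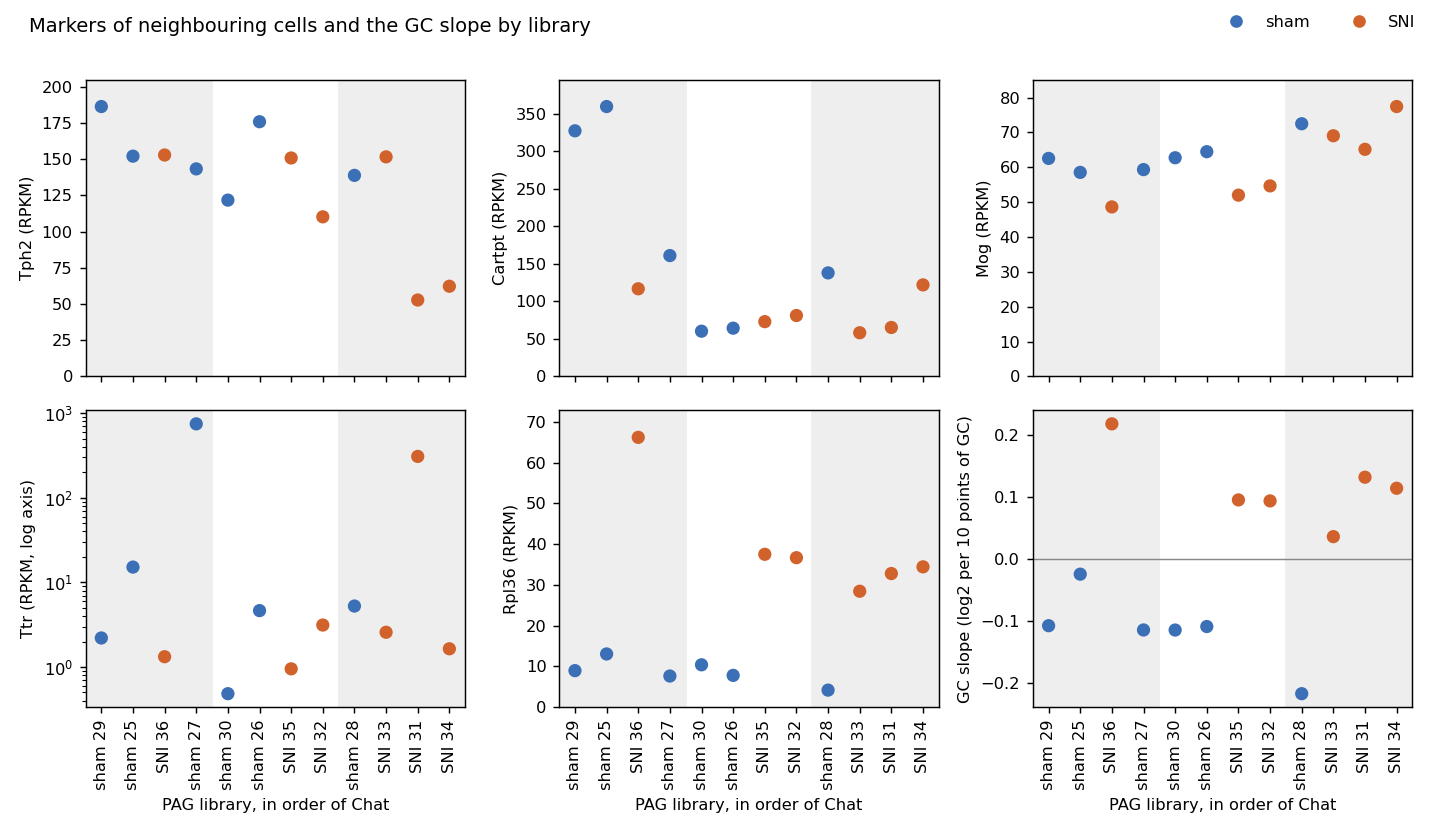
Tph2, Cartpt, Mog, Ttr (log axis) and Rpl36 in RPKM, and the GC slope in log2 units per 10 points of GC, 1 point per PAG library in order of Chat, blue for sham and orange for SNI, with the high and low classes shaded. Tph2 is low in SNI 31 and SNI 34 alone, Ttr is high in sham 27 and SNI 31, and the GC slope separates sham from SNI.

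The Chat classes were not balanced for surgery, so both were put in 1 fit. With a surgery term in the class comparison 12 of the 14 motor genes were higher, with a median of 0.40, and Lhx4 differed by 1.01 with a limma adjusted p of 0.0760. In that fit 2 genes passed, or 0.0128%, Gm23489 and the small heat shock protein gene Hspb1, both named after their values were seen. In sham libraries alone the Lhx4 slope was 0.79 and in SNI libraries alone 0.60. Their difference, SNI minus sham, was -0.19 (SE 0.21), with a limma adjusted p of 0.862. For no gene did the slope differ by surgery at the adjusted threshold, and 6.9% of genes had an unadjusted p under 0.05. The lowest adjusted p was 0.327. Prph, at 0.70 in sham and 0.31 in SNI, had a difference of -0.39 (SE 0.14) and an adjusted p of 0.650.

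SNI 31 and SNI 34, the libraries with the lowest serotonin markers, also had the lowest Chat, at 1.36 and 0.361 RPKM. Leaving them out was chosen after seeing the data and narrows the range of Chat. Without them the slope fit gave 1156 calls, 748 of them upward. Of the cranial motor list 7 of 14 passed upward, against 4.8% of all genes, Prph among them with a slope of 0.65 and a limma adjusted p of 0.0208. In the 4 SNI libraries that remained, the order by Chat and the order by GC slope were the same, SNI 36, SNI 35, SNI 32 and SNI 33. With the GC slope as a further covariate 0 genes passed, 389 had an unadjusted p under 0.05, and 11 of the 14 motor genes had a slope above 0 with a median of 0.49.

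The surgery contrast itself is the comparison the study was built on, and it changed for some of these genes when Chat was in the fit. SNI against sham in PAG gave 5495 calls of 15591 genes, or 35.2%, with 21.6% higher and 13.7% lower. With the GC slope as a covariate 0 genes passed in limma and 1374 had an unadjusted p under 0.05. The GC slope comes from these same values and separates all sham from all SNI libraries. That fit therefore cannot tell surgery and GC slope apart, and the loss of calls was largely built in. Of the 14 motor genes 2 passed as lower with SNI, a share close to the 13.7% of all genes. These were Chodl, which fell by 0.60 (limma adjusted p 0.0349), and Spp1, which fell by 0.59 (limma adjusted p 0.0367). Fgf1 fell by 0.27 (limma adjusted p 0.0197) and Vipr2 by 0.37 (limma adjusted p 0.0449). With means of 0.431 RPKM in SNI and 0.712 in sham, Vipr2 passed the filter through the sham libraries. The Fgf1 call held without any 1 library, with adjusted p from 0.00719 to 0.0377. Calls ended without any 1 of sham 25, sham 27, sham 29, SNI 31, SNI 32 or SNI 33 for Chodl, Spp1 and Vipr2, and also without SNI 34 for Chodl and Vipr2, sham 28 or SNI 35 for Spp1 and sham 26 for Vipr2. With log2 Chat in the fit the values were -0.21 for Chodl, -0.39 for Spp1, -0.14 for Fgf1 and -0.15 for Vipr2, and none passed. Since Chat was lower in SNI, adding it moves the SNI minus sham value upward for any gene with a positive slope on Chat. Chodl, Fgf1, Vipr2 and Lhx4 were named by such a slope, so their change was fixed by that choice and is no finding about surgery. In that fit 0 of the 14 motor genes passed as lower and 1, Prph, passed as higher, by 0.38 with a limma adjusted p of 0.0218. Prph has a slope on Chat of 0.40, so the same upward move is part of that value. It is no finding about surgery either. Over all genes that fit gave 5564 calls, or 35.7%, with 21% higher and 14.6% lower. Of the cholinergic genes, Ache rose with SNI by 0.29 (limma adjusted p 0.00166) and Bche fell by 0.22 (limma adjusted p 0.0404), with 0.41 and -0.35 once Chat was in the fit. The Bche call ended without any 1 of sham 26, sham 28, sham 29, sham 30, SNI 35 or SNI 36. Lhx4 was at -0.52 without and 0.08 with Chat in the fit, and passed in neither. Slc5a7 was at -1.36 (SE 0.43) without and -0.26 (SE 0.12) with it. Chat level and surgery are partly confounded in these 12 libraries and cannot be fully told apart.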

How the data were processed

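The authors deposited 1 table of RPKM for 36 libraries and 31554 genes. Per the submitters' processing notes, TopHat2 and HTSeq were used with mm10, with no role or version stated. The deposited RPKM scale with gene length and with the reads counted in the table: multiplied by gene length and depth, 100% of the values above 0 were whole reads within 0.001. PAG depth was 27598522 to 44081430 reads. Strand was not used in the library kit named in the labels, so overlapping antisense genes cannot be told apart.

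Libraries were grouped by the labels and ranked by Chat. Tests took genes whose PAG libraries averaged 0.5 RPKM or more and ran on log2(RPKM + 0.5) with limma 3.58.1 in R 4.3.3 with a mean-variance trend, two-sided, with Benjamini-Hochberg adjustment at 0.05. This scale understates the change of low genes. Fits were the 4 high against the 4 low libraries, the slope on log2(Chat + 0.5) with surgery as a covariate, SNI against sham, and the difference of the slopes. Chat was left out of all fits and Slc5a7 out of the Chat fits. The p-values measure association with the Chat level. The script was tested on simulated counts. Gene positions and GC content are from GENCODE M21.

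Genes were named by rule: up to 12 per direction, past the threshold or else by p, with a fitted difference of 1.3-fold or more on the log2(RPKM + 0.5) scale, with classes that do not overlap and a slope of the same sign at unadjusted p under 0.05, without predicted and small RNA genes. Members and the 27 gene lists were chosen with earlier results of these data known. Some items are not reported here.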

Additional observations from a re-analysis of the deposited data

Results flagged for a closer look

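Of 172 groups of 4 or 6 PAG libraries checked, 11 held a library far from the others by Dixon's criterion at 95%, which chance alone does in about 1 group in 20. All values are RPKM. In SNI libraries, SNI 36 was highest for Kcnj14 (2.34, the next 1.53), Hspb8 (11.97, the next 7.72), Calca (2.60, the next 1.93) and Ucn (6.60, the next 2.68). SNI 36 is the 1 SNI library of the high-Chat class. Colq was highest in SNI 34 at 0.560, the next 0.390, and Nmb was lowest in SNI 32 at 1.38, the next 1.88. Among the high-Chat libraries Ret was lowest in sham 27 at 11.3, the next 12.9, while Slc10a4 and Ahnak2 were highest in sham 29, at 7.98 and 1.37. Of the low-Chat libraries sham 28, the 1 sham library, was highest for Calcb at 0.869, the next 0.411, and for Chodl at 1.42, the next 0.739.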

How the results depend on the processing

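Counts of genes past the threshold moved with the settings. For the classes (1 gene), 2 passed with no filter and 2 with surgery as a covariate, 8 with array weights, and 0 with a filter of 2 RPKM, quantile scaling, voom on recovered reads, classes of 3 or 6, ranking by Slc5a7, classes within each surgery, or without either pair of libraries (SNI 31 and SNI 34; sham 27 and SNI 31). Leaving out 1 library gave 0 to 2. For the slope (5 genes), 0 passed with no filter, array weights, the GC slope, sham only, SNI only, or without sham 27 and SNI 31, 1 with no surgery term, 9 with quantile scaling, 15 with voom, 1156 without SNI 31 and SNI 34, and 0 when the GC slope was added there. Leaving out 1 library gave 0 to 31: 0 without sham 27, sham 28, SNI 31, SNI 32, SNI 35 or SNI 36, 2 without sham 30, 3 without sham 25 or sham 26, 10 without sham 29, 22 without SNI 33 and 31 without SNI 34. The pairs, the added GC slope and the fit with Slc5a7 kept were chosen after seeing the data. SNI against sham (5495) gave 4230 to 6530 with 1 library left out, 2922 higher and 4022 lower with quantile scaling against 3360 and 2135, and 0 with the GC slope. The GC slope separates sham from SNI, so that last fit cannot tell the 2 apart. The slope difference gave 0 to 3 with 1 library left out, 3 without SNI 36. The causes were not tested.

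Of the single-gene values for the classes and the slope recomputed under the alternatives, which leave out Slc5a7, all kept their direction except the slope of Gfra1, at -0.0043 without SNI 31 and SNI 34 with the GC slope. For SNI against sham, Ache turned to -0.044 and Bche to 0.13 with the GC slope, and Lhx4 to 0.079 with log2 Chat. No paired analysis was possible because replicate numbers are not shared between groups.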
